A study of Mus musculus with 6 samples.

Results

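Matrix metalloproteinases (MMPs), their tissue inhibitors (TIMPs), the ADAMTS proteases with the ADAMTS-like proteins, and the lysyl oxidases were followed in the livers of Prdx1 C52S mice and WT mice. They were taken by symbol: every row whose gene name begins with Mmp, Timp, Adamts or Adamtsl and a number, or is Lox or Loxl with a number. That gave 50 of 29734 genes, namely 19 MMPs, 4 TIMPs, 17 ADAMTS proteases, 5 ADAMTS-like proteins and 5 lysyl oxidases. The Prdx1 C52S group was 3 male mice (libraries Prdx1 C52S 1, 2 and 4) whose peroxiredoxin 1, a thiol peroxidase that reduces hydrogen peroxide, has its peroxidatic cysteine replaced by serine. The WT group was 3 male mice (libraries WT 6, 8 and 9) with the unaltered gene. All mice of both groups started a Western diet, which is rich in fat and sugar and produces a fatty, inflamed liver, at 8 weeks of age and stayed on it for 20 weeks. No group on another diet is included here, and the labels do not state whether the C52S allele was carried on 1 or both chromosomes. Poly(A)-selected RNA of whole liver was sequenced, and the labels number the libraries but say nothing of litter or cage. A difference between genotypes can thus not be told apart from one of litter or cage. The p-values set the difference between genotypes against the variation among libraries within them, 3 in each, moderated over all genes.

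MMPs are zinc endopeptidases that cut collagens and other matrix proteins, and TIMPs bind and block their active site. ADAMTS proteases process procollagen, proteoglycans, fibrillin-rich fibrils or von Willebrand factor, while the ADAMTS-like proteins keep the binding domains of the family without the protease. Lysyl oxidases oxidise lysines of collagen and elastin so that the fibres become crosslinked, and in fibrotic liver most of these genes are expressed in stellate cells, portal fibroblasts, macrophages and bile duct epithelium rather than in hepatocytes.

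The table held 60.3 to 76.2 M estimated counts per library, which at about 4 counts per fragment is 15.1 to 19.0 M fragments. The 8 hepatocyte markers summed to 30100 to 32300 FPKM in Prdx1 C52S libraries and to 26400 to 29100 FPKM in WT libraries, which bears out the tissue label (FPKM is the fragment count scaled to transcript length and library depth). WT 8 stood apart. Its 12 cholangiocyte markers summed to 158 FPKM, against 20.2 to 28.9 FPKM in the other WT libraries, and its 6 Kupffer cell markers to 36.3 FPKM, against 247 and 278 FPKM. Its mean correlation with the other libraries was the lowest, at 0.937, and results that rest on it are given with and without it.

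A cluster of MMP genes on chromosome 9 holds 7 of the members within 427 kb (chr9:7272514-7699585, GRCm38), in the order Mmp13, Mmp12, Mmp3, Mmp8, Mmp27, Mmp20 and Mmp7. Of the 33 members with a RefSeq promoter (GRCm38.p6, the 250 bases before the start), 3 hold the AP-1 heptamer TGAGTCA, searched on both strands, and these are Mmp7, Mmp13 and Mmp3, all from this cluster. The same heptamer is in 4.46% of all 32851 promoters of that length. All 3 also hold TATAAA, likewise searched on both strands and not overlapping the heptamer, as do 7 of the 33 members and 12.37% of all promoters. The promoters of these genes and of Mmp12 of the same cluster, which holds neither motif, are shown. Of the cluster promoters not shown, Mmp20 holds TATAAA alone, and Mmp8 and Mmp27 hold neither motif. Of those shown, all but Mmp12 share motifs, while the transcript levels of Mmp7, Mmp13 and Mmp12 in these livers do not follow each other. Mmp3, listed above 0 only in WT 8 and WT 9, was too low for that comparison. Capitals mark AP-1 and TATA motifs, and each sequence is on the plus strand, 5′ to 3′, ending at the base before the start.
Mmp7 (chr9:7691840-7692089): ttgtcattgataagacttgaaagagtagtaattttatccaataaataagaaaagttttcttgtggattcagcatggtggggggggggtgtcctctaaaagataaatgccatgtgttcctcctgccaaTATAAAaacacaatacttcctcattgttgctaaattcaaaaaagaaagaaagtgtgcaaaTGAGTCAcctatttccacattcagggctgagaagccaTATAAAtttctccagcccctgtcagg
Mmp13 (chr9:7272264-7272513): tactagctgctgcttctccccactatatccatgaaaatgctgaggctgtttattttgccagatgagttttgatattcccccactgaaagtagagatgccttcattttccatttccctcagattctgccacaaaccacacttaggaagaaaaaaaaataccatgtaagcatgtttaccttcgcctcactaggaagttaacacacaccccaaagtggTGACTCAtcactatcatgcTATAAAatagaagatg
Mmp3 (chr9:7445572-7445821): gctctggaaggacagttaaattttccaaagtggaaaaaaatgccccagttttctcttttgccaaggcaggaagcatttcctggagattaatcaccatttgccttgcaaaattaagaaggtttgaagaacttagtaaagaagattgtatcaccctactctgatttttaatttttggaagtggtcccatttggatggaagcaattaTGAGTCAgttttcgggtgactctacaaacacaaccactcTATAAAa
Mmp12 (chr9:7344147-7344396): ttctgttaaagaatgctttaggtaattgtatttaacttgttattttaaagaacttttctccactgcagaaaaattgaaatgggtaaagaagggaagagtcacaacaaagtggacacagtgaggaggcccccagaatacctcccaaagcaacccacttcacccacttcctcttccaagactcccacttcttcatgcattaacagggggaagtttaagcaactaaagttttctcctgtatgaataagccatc
The heptamer begins 63 bases before the start in Mmp7, 46 in Mmp3 and 35 in Mmp13, where it lies on the minus strand. Mmp7 holds TATAAA at 123 and at 26 bases before the start. A match is a description of these letters and not evidence of a bound site. The GC box GGGCGG, searched on both strands, is absent from these 4 windows, while 20 of the 33 member promoters (60.6%) hold it, against 32.74% of all promoters.

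No member passed the test between the genotypes at an adjusted p below 0.05, and neither did any other gene (edgeR quasi-likelihood test with Benjamini-Hochberg adjustment over 18931 genes). Below that threshold the members were mostly at lower levels in Prdx1 C52S livers: 37 of the 45 members tested had a negative log2 fold change and 8 a positive one. Of all 18931 genes tested, 10028 had a negative value and 8903 a positive one. Among the members with a mean of at least 5 FPKM in a genotype, matrilysin (Mmp7), Adamtsl2, Mmp2, Timp3 and Timp2 had the most negative values, while Mmp19 alone lay above WT in every Prdx1 C52S library. The median log2 fold change of the 45 was -0.72, beside -0.03 for all genes tested, and -0.54 without WT 8, beside -0.01. The share of members called at an adjusted p below 0.05 was thus 0%, the same as the 0% of all genes in either direction.

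At an unadjusted p below 0.05, 22 of 45 members (48.9%) were lower in Prdx1 C52S livers, beside 14.8% of all genes tested, and 1 member (2.22%), Mmp19, was higher, beside 11.5% of all genes. Without WT 8 these counts were 18 lower (40%, beside 11.1%) and 3 higher (6.67%, beside 11.2%), and 15 of the lower members were called in both. The 7 called only with WT 8 were Mmp2, Mmp11, Mmp23, Adamts5, Adamts7, Adamts9 and Adamtsl1, and the 3 called only without it were Mmp12, Mmp27 and Loxl2. Without WT 8, Mmp7 alone passed the adjusted threshold on the lower side (2.22% of members, beside 1.94% of all genes) and no member passed on the higher side (beside 2.7%). Without WT 9, Timp2 and Mmp7 passed on the lower side, beside 0.351% of all genes, and Mmp19 on the higher side, beside 0.321%. DESeq2, the alternative count test, gave an adjusted p below 0.05 to 17 lower members of 43 (39.5%, beside 9.88% of all genes) and to Mmp19 on the higher side (2.33%, beside 8.02%).

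The FPKM values of 23 of the 45 tested members (51.1%) lay below every WT library in all Prdx1 C52S libraries, beside 36.7% of all genes tested, and Mmp19 (2.22%, beside 6.09%) lay above. Without WT 8 there were 25 such members on the lower side (55.6%, beside 39.3%) and 4 on the higher side (8.89%, beside 8.84%). FPKM sums differed between the libraries, and on CPM scaled with TMM factors 18 members were lower without overlap (40%, beside 18.3%) and 2 higher, Mmp19 and Adamts14 (4.44%, beside 16.5%). All 18 were also among the 23. Scaling by library totals alone moved the median log2 fold change of all genes from -0.03 to -0.34, and 41 members were then lower and 4 higher.

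**Figure D1:**
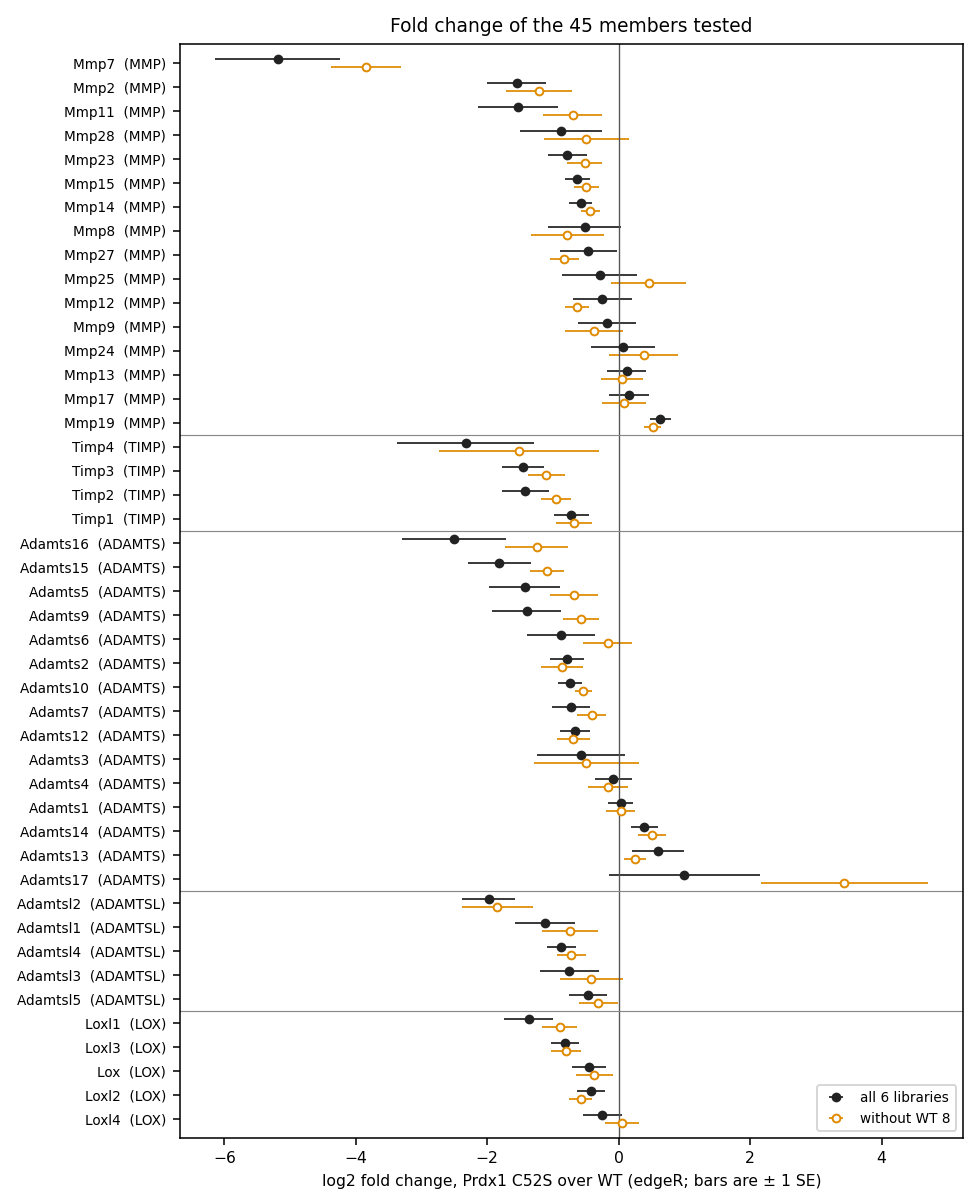
Log2 fold change (Prdx1 C52S over WT, edgeR, ± 1 SE) of the 45 members tested, sorted within families, from all 6 libraries (filled) and without WT 8 (open). All 4 TIMPs, all 5 ADAMTS-like proteins and all 5 lysyl oxidases lie left of 0 with all libraries, Loxl4 crosses to 0.05 without WT 8, and Mmp7 lies farthest left.

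In bulk liver, fewer cells of a type and less RNA per cell cannot be told apart, and markers of several cell types moved with the members. All 12 cholangiocyte markers had negative log2 fold changes and summed to 8.57 to 13.2 FPKM in Prdx1 C52S libraries and 20.2 to 158 FPKM in WT libraries. All 8 portal fibroblast markers were likewise negative, with sums of 6.26 to 7.67 FPKM in Prdx1 C52S libraries and 11.2 to 33.1 FPKM in WT libraries. The 6 markers of lipid-associated macrophages, all negative, summed to 24.3 to 39.4 FPKM in Prdx1 C52S libraries and 65.8 to 115 FPKM in WT libraries, and the 8 macrophage markers, 6 of them negative, to 210 to 242 FPKM in Prdx1 C52S libraries and 484 to 531 FPKM in WT libraries. The 10 stellate cell markers were split, 5 negative and 5 positive, with a median log2 fold change of 0.00 and sums of 85.8 to 102 FPKM in Prdx1 C52S libraries and 104 to 139 FPKM in WT libraries. The 6 T cell markers, all negative, summed to 0.933 to 1.22 FPKM in Prdx1 C52S libraries and 2.9 to 6.3 FPKM in WT libraries. The 10 neutrophil markers, 7 negative and 2 positive of 9 tested, summed to 5.16 to 21.6 FPKM in Prdx1 C52S libraries and 23.2 to 29.5 FPKM in WT libraries. The low sum of 5.16 FPKM was that of Prdx1 C52S 4, against 21.6 and 18.8 FPKM in Prdx1 C52S 1 and 2. Kupffer cell, sinusoidal endothelial, smooth muscle and mesothelial sums overlapped between the genotypes. For Kupffer cells and sinusoidal endothelium the overlap rested on WT 8. Kupffer cell sums were 166 to 214 FPKM in Prdx1 C52S libraries, against 247 FPKM in WT 6 and 278 FPKM in WT 9. Sinusoidal endothelial sums were 53.7 to 62.7 FPKM, against 69.3 and 71 FPKM. Without WT 8 the median log2 fold change went from 0.34 to -0.18 for Kupffer cell markers. For sinusoidal endothelial markers it went from 0.29 to -0.15. No marker of these lists was at 0 in every library. For cholangiocyte markers the median log2 fold change was -3.08 with all libraries and -1.55 without WT 8. It was -1.32 and -0.86 for portal fibroblast, -1.67 and -1.44 for T cell, and -0.54 and -0.77 for neutrophil markers. For lipid-associated macrophages it was -1.04 and -1.09, for macrophages -0.45 and -0.62, and for stellate cells 0.00 and -0.15. Of all 18931 genes tested, 10028 had a negative value with all libraries. The part of these cell types in the results was not tested.

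Mmp7, matrilysin, is a small MMP without the hemopexin domain that epithelial cells secrete (chr9:7692090-7699585). It measured 0.772, 0.231 and 0.735 FPKM in Prdx1 C52S 1, 2 and 4, against 12.6, 66.3 and 6.47 FPKM in WT 6, 8 and 9. The groups did not overlap, and the lowest WT library stood far above the highest Prdx1 C52S library. Its log2 fold change came to -5.19 with SE 0.95 (edgeR adjusted p = 0.0747), and to -3.84 with SE 0.53 without WT 8 (adjusted p = 0.0254). Over 15 alternatives its adjusted p ran between 1.33e-05 (DESeq2) and 0.285 (edgeR without Prdx1 C52S 2). WT 8 was also the library with the highest sum of cholangiocyte markers, WT 6 the next and WT 9 the third, the same order as for Mmp7. Sums of portal fibroblast, lipid-associated macrophage, T cell and mesothelial markers had that order of WT libraries too. Among the Prdx1 C52S libraries Mmp7 was lowest in Prdx1 C52S 2 and the cholangiocyte sum in Prdx1 C52S 4. Portal fibroblast, lipid-associated macrophage and mesothelial sums followed the order of Mmp7 there, and the T cell sum did not. A link of Mmp7 to any of these cell types was not tested. The gene overlaps AV064505 on the other strand, and the sources used here do not say whether counting used the strand.

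Mmp13, Mmp12 and Mmp27, the other cluster genes with a mean of at least 0.5 FPKM in a genotype, did not share this pattern. Mmp13, collagenase 3 and the main interstitial collagenase of rodents, measured 0.902, 1.11 and 1.82 FPKM in Prdx1 C52S libraries, against 1.53, 1.49 and 1.29 FPKM in WT libraries, which overlap. The fold change on the log2 scale was 0.12 (SE 0.30, adjusted p = 0.823), and it turned negative (-0.18) with library totals. Mmp12, the macrophage elastase, measured 4.91, 3.15 and 4.55 FPKM in Prdx1 C52S libraries, against 6.84, 2.66 and 8.03 FPKM in WT libraries. WT 8 was its lowest library of all, so that the groups overlapped with WT 8 and did not without it. The log2 fold change was -0.25 (SE 0.45, adjusted p = 0.763) with all libraries, -0.63 (SE 0.18) without WT 8 and 0.10 without WT 9. Mmp12 overlaps Mmp1b, another MMP gene, on the other strand. Mmp27, a poorly characterised neighbour, had the same arrangement, with 1.16, 1.08 and 0.846 FPKM in Prdx1 C52S libraries and 2.25, 0.804 and 1.95 FPKM in WT libraries. Its log2 fold change was -0.46 (SE 0.44), and -0.83 (SE 0.22) without WT 8. Mmp12, Mmp27 and Adamts13 were the 3 tested members whose lowest value was in WT 8, the library in which the Kupffer cell markers summed to 36.3 FPKM, against 166 to 278 FPKM in the other 5 libraries. Sums of other cell types were also lowest in WT 8, such as sinusoidal endothelium (23.8 FPKM, against 53.7 to 71 FPKM) and smooth muscle (6.39 FPKM, against 6.94 to 9.85 FPKM). A link to any of them was not tested.

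Mmp3 (stromelysin 1) was listed at 0 in all Prdx1 C52S libraries and in WT 6, with 50 and 15 estimated counts in WT 8 and WT 9, and did not pass the filter on low counts. A count of 0 allows up to 3 fragments of the 15.1 to 19.0 M in a Prdx1 C52S library (counting error only). Mmp8, the neutrophil collagenase, stayed between 0.0698 and 0.18 FPKM in Prdx1 C52S libraries and between 0.149 and 0.324 FPKM in WT libraries. Mmp20, enamelysin of tooth enamel, was listed at 0 except for 5 estimated counts in WT 8.

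**Figure D2:**
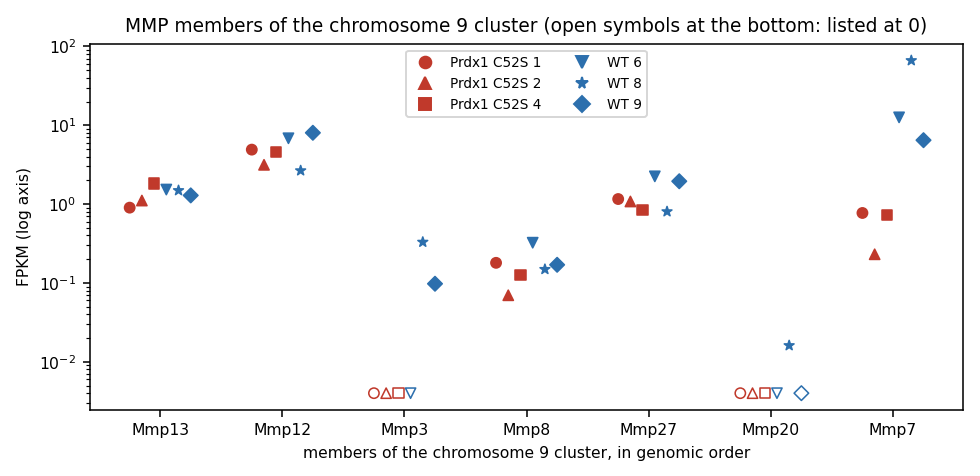
FPKM (log axis) of the 7 MMP members of the chromosome 9 cluster in their genomic order, Prdx1 C52S libraries left of WT libraries within each gene; open symbols at the bottom are values listed at 0. Mmp7 separates the genotypes widely, Mmp13 does not, and Mmp12 and Mmp27 are lowest in WT 8.

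Mmp19, a widely expressed MMP that cuts basement membrane proteins, was the member with the highest mean in Prdx1 C52S livers. It measured 18.2, 17.3 and 18.5 FPKM in Prdx1 C52S libraries, against 12.1, 13.6 and 16.6 FPKM in WT libraries, without overlap. The Prdx1 C52S values lay close together, with a mean of 18 ± 0.655 FPKM against 14.1 ± 2.26 FPKM in WT livers (SD, n = 3 each). With edgeR the log2 fold change was 0.63 (SE 0.16, adjusted p = 0.0934), 0.52 without WT 8 and 0.35 with library totals, positive under each. Mmp19 overlaps Tmem198b and Gm47093 on the other strand.

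The gelatinase Mmp2 and its membrane-bound activator Mmp14 were lower in every Prdx1 C52S library. Mmp2 (chr8:92827291-92853420) measured 2.63, 1.33 and 2.47 FPKM in Prdx1 C52S libraries, against 8.09, 12.7 and 3.2 FPKM in WT libraries. The gap between the groups was narrow at WT 9, and the log2 fold change was -1.55 (SE 0.45, adjusted p = 0.109), or -1.21 (SE 0.50) without WT 8. Mmp14, the membrane-type MMP that activates pro-MMP2 together with TIMP2, measured 5.1, 4.72 and 3.58 FPKM in Prdx1 C52S libraries, against 6.99, 11.3 and 6.75 FPKM in WT libraries. Its log2 fold change was -0.58 (SE 0.17, adjusted p = 0.107), with no overlap of the groups. Mmp15, a second membrane-type MMP, measured 6.91, 6.02 and 7.87 FPKM in Prdx1 C52S libraries, against 13.4, 18 and 8.84 FPKM in WT libraries. The groups were again apart on FPKM, with a log2 fold change of -0.63 (SE 0.19, adjusted p = 0.115). On TMM-scaled CPM 3 MMPs were lower without overlap, against 5 on FPKM, and Mmp15 was not among the 3.

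Mmp23, a membrane-anchored MMP, measured 1.19, 1.03 and 1.4 FPKM in Prdx1 C52S libraries, against 2.48, 3.89 and 1.49 FPKM in WT libraries. WT 9 lay just above the highest Prdx1 C52S library on FPKM but not on TMM-scaled CPM, and the log2 fold change was -0.78 (SE 0.30, adjusted p = 0.157). Mmp11, stromelysin 3, measured 0.499, 0.29 and 0.193 FPKM in Prdx1 C52S libraries, against 0.807, 2.54 and 0.423 FPKM in WT libraries. The groups overlapped at WT 9, and the log2 fold change was -1.53 (SE 0.61), or -0.70 (SE 0.45) without WT 8. Mmp9 (gelatinase B), Mmp17, Mmp24, Mmp25 and Mmp28 had means under 0.5 FPKM in both genotypes, with unadjusted p above 0.05 and log2 fold changes of -0.88 (Mmp28) to 0.16 (Mmp17). With library totals Mmp17 (-0.14) and Mmp24 (-0.26) were negative, and with TMM factors positive. Mmp21 was listed at 0 except for 5 estimated counts in WT 9.

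All 4 TIMPs were lower in every Prdx1 C52S library than in any WT library on the FPKM scale (beside 36.7% of all genes tested) and on TMM-scaled CPM (beside 18.3%). Timp2 measured 6.18, 4.6 and 5.23 FPKM in Prdx1 C52S libraries, against 14.8, 31.1 and 8.77 FPKM in WT libraries. In edgeR its log2 fold change was -1.42 (SE 0.36, adjusted p = 0.0954), and -0.95 (SE 0.23) without WT 8. Timp3, the TIMP held in the matrix that also blocks ADAM and ADAMTS proteases, measured 5.74, 3.66 and 3.83 FPKM in Prdx1 C52S libraries, against 13.3, 24.4 and 8.19 FPKM in WT libraries. Its log2 fold change was -1.45 (SE 0.32, adjusted p = 0.0842), and -1.10 (SE 0.28) without WT 8. Timp1, a transcript induced in injured liver, measured 3.72, 1.93 and 2.85 FPKM in Prdx1 C52S libraries, against 4.69, 6.97 and 5.62 FPKM in WT libraries. The log2 fold change was -0.72 (SE 0.27, adjusted p = 0.148) and moved little without WT 8 (-0.68). Timp4 was barely detected, with at most 0.0122 FPKM in Prdx1 C52S libraries and at most 0.105 FPKM in WT libraries. Timp2 overlaps Cep295nl on the same strand, and Timp3 lies over Syn3 on the other.

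Summed over their genes, the MMPs reached 43.2, 36.9 and 42.8 FPKM in Prdx1 C52S libraries, against 68.4, 135 and 56.1 FPKM in WT libraries. The TIMPs summed to 15.6, 10.2 and 11.9 FPKM in Prdx1 C52S libraries, against 32.8, 62.5 and 22.6 FPKM in WT libraries. The ratio of the MMP sum to the TIMP sum was 2.76, 3.62 and 3.59 in Prdx1 C52S libraries, against 2.08, 2.16 and 2.48 in WT libraries, without overlap. The ratio depended on which MMPs entered it. Without Mmp19 it was 1.6, 1.93 and 2.04 in Prdx1 C52S libraries, against 1.71, 1.94 and 1.75 in WT libraries, which overlap. Without Mmp7 it was 2.71, 3.6 and 3.53 in Prdx1 C52S libraries, against 1.7, 1.1 and 2.19 in WT libraries. Without both genes it was 1.55, 1.9 and 1.98 in Prdx1 C52S libraries, against 1.33, 0.882 and 1.46 in WT libraries, and the groups overlapped in neither of these versions. Mmp19 made up 42.2%, 46.7% and 43.2% of the MMP sum in Prdx1 C52S libraries, against 17.7%, 10.1% and 29.5% in WT libraries. Mmp7 made up 1.79%, 0.626% and 1.72% in Prdx1 C52S libraries, against 18.5%, 49.1% and 11.5% in WT libraries. These are sums of transcript levels, not of enzyme or inhibitor activity.

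**Figure D3:**
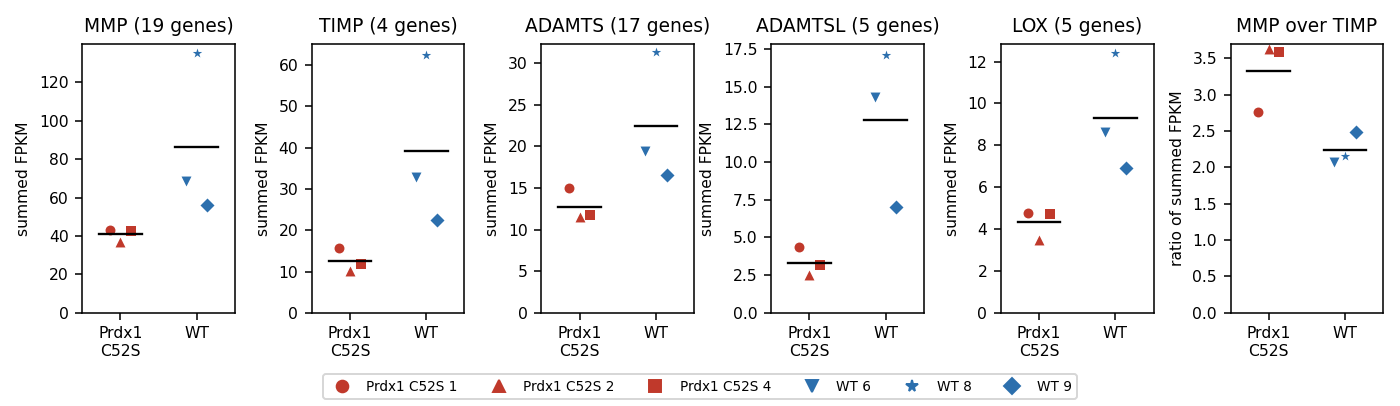
Summed FPKM of each family by library (points; the bar is the mean of 3 libraries), with the ratio of the MMP sum to the TIMP sum at the right. The Prdx1 C52S sums lie below every WT sum in all 5 families, WT 8 is highest in each, and the ratio lies between 2.76 and 3.62 in Prdx1 C52S libraries against 2.08 to 2.48 in WT libraries.

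Among the ADAMTS proteases, 11 of 15 tested were lower in Prdx1 C52S livers. Of these, 8 had an unadjusted p below 0.05, or 5 without WT 8 (all genes: 14.8%, and 11.1% without WT 8). On the higher side the count was 0, and 2 without WT 8, Adamts14 and Adamts17 (all genes: 11.5%, and 11.2% without WT 8). The median log2 fold change was -0.73, or -0.49 without WT 8. The procollagen N-propeptidases differed in sign. Adamts2, the main one for fibrillar collagen, measured 1.5, 1.01 and 1.29 FPKM in Prdx1 C52S libraries, against 3.5, 2.79 and 1.74 FPKM in WT libraries. The groups did not overlap (log2 fold change -0.79, SE 0.26, adjusted p = 0.128). Adamts14 measured 0.589, 0.607 and 0.572 FPKM in Prdx1 C52S libraries, against 0.453, 0.738 and 0.492 FPKM in WT libraries. Only WT 8 lay above the Prdx1 C52S values, and the log2 fold change was 0.39 (SE 0.21, adjusted p = 0.282), 0.51 without WT 8 and 0.06 with library totals. Adamts3, the remaining N-propeptidase, stayed at or below 0.101 FPKM in every library.

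The proteoglycan-cutting members above 0.5 FPKM ran between log2 fold changes of 0.03 for Adamts1 and -1.82 for Adamts15. Adamts1 measured 4.85, 3.14 and 3.46 FPKM in Prdx1 C52S libraries, against 3.52, 5.22 and 5 FPKM in WT libraries. These overlapped, and the log2 fold change of 0.03 (SE 0.19, adjusted p = 0.936) turned to -0.27 with library totals. Adamts5 measured 0.307, 0.26 and 0.546 FPKM in Prdx1 C52S libraries, against 0.855, 2.56 and 0.501 FPKM in WT libraries. Adamts9, a versican-cutting protease, measured 0.495, 0.324 and 0.3 FPKM in Prdx1 C52S libraries, against 0.78, 2.61 and 0.489 FPKM in WT libraries. In both, WT 9 lay within the Prdx1 C52S range and WT 8 was far above, so that the log2 fold changes of -1.43 (SE 0.54) for Adamts5 and -1.40 (SE 0.53) for Adamts9 became -0.68 (SE 0.37) and -0.57 (SE 0.27) without WT 8. Adamts15 measured 0.26, 0.217 and 0.222 FPKM in Prdx1 C52S libraries, against 0.715, 2.08 and 0.418 FPKM in WT libraries. Its groups did not overlap, with a log2 fold change of -1.82 (SE 0.48, adjusted p = 0.0983), and -1.09 (SE 0.26) without WT 8. Adamts4, Adamts8 and Adamts20 were under 0.5 FPKM on average in both genotypes, and Adamts8 and Adamts20 did not pass the filter.

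Adamts10 and Adamts6, which act on fibrillin microfibrils, differed in how the groups lay. Adamts10 measured 2.75, 2.23 and 2.24 FPKM in Prdx1 C52S libraries, against 4.5, 7.17 and 3.5 FPKM in WT libraries. All WT libraries lay above (log2 fold change -0.74, SE 0.18, adjusted p = 0.0903; -0.54, SE 0.13, without WT 8). Adamts6 measured 0.328, 0.129 and 0.216 FPKM in Prdx1 C52S libraries, against 0.302, 1.03 and 0.273 FPKM in WT libraries. Its log2 fold change of -0.88 (SE 0.52) was -0.17 (SE 0.38) without WT 8, and the groups overlapped. Adamts7 and Adamts12 cut cartilage oligomeric matrix protein. Adamts7 measured 1.52, 1.18 and 0.857 FPKM in Prdx1 C52S libraries, against 1.8, 3.91 and 1.8 FPKM in WT libraries. Adamts12 measured 0.153, 0.125 and 0.132 FPKM in Prdx1 C52S libraries, against 0.273, 0.293 and 0.233 FPKM in WT libraries. Neither pair of groups overlapped, with log2 fold changes of -0.73 (SE 0.29, adjusted p = 0.164) for Adamts7 and -0.67 (SE 0.23, adjusted p = 0.131) for Adamts12, and without WT 8 of -0.41 and -0.69.

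Adamts16 had the largest negative log2 fold change of the ADAMTS proteases, at low levels. It measured 0.111, 0.112 and 0.0411 FPKM in Prdx1 C52S libraries, against 0.301, 1.54 and 0.181 FPKM in WT libraries. The groups did not overlap, and the log2 fold change of -2.50 (SE 0.79, adjusted p = 0.119) was -1.25 (SE 0.48) without WT 8. Adamts13, the von Willebrand factor protease that stellate cells make in liver, measured 1.61, 1.81 and 1.49 FPKM in Prdx1 C52S libraries, against 1.74, 0.675 and 1.41 FPKM in WT libraries. WT 8 alone was low, and the log2 fold change of 0.60 (SE 0.39, adjusted p = 0.358) was 0.25 (SE 0.17) without it. Adamts17 stayed at or below 0.0424 FPKM.

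All 5 ADAMTS-like proteins had negative log2 fold changes, with a median of -0.87, and -0.72 without WT 8. Adamtsl2, which binds fibrillin and the latent TGF-beta binding protein, measured 2.91, 1.22 and 1.92 FPKM in Prdx1 C52S libraries, against 11.5, 13 and 5.1 FPKM in WT libraries. Even WT 9, the lowest WT library, lay above every Prdx1 C52S library. In edgeR the value was a log2 fold change of -1.98 (SE 0.40, adjusted p = 0.0803), and of -1.85 (SE 0.54) without WT 8. The summed level of the family was 4.35, 2.51 and 3.14 FPKM in Prdx1 C52S libraries, against 14.3, 17.1 and 7.01 FPKM in WT libraries. Adamtsl4, a fibrillin-binding protein, measured 1.04, 0.866 and 0.865 FPKM in Prdx1 C52S libraries, against 2.09, 2.87 and 1.38 FPKM in WT libraries. The groups did not overlap (log2 fold change -0.87, SE 0.22, adjusted p = 0.094; -0.72, SE 0.22, without WT 8). Adamtsl1 measured 0.109, 0.0622 and 0.0734 FPKM in Prdx1 C52S libraries, against 0.218, 0.366 and 0.0938 FPKM in WT libraries. It overlapped at WT 9 and had a log2 fold change of -1.12 (SE 0.45), or -0.74 (SE 0.42) without WT 8, and it shares its strand with the overlapping gene Sh3gl2. Adamtsl3 and Adamtsl5 stayed under 0.5 FPKM on average in both genotypes, with log2 fold changes of -0.75 and -0.47.

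All 5 lysyl oxidases lay lower in every Prdx1 C52S library than in any WT library on the FPKM scale, on which 36.7% of all genes tested were lower without overlap. On TMM-scaled CPM this held for Lox, Loxl1 and Loxl3, beside 18.3% of all genes. Loxl1, which serves elastic fibres, measured 1.02, 0.872 and 1.42 FPKM in Prdx1 C52S libraries, against 2.82, 6.23 and 1.89 FPKM in WT libraries. It had a log2 fold change of -1.37 (SE 0.37, adjusted p = 0.101), and -0.90 (SE 0.26) without WT 8. Loxl2, a crosslinker of collagen IV and fibrillar collagen, measured 1.82, 1.3 and 1.67 FPKM in Prdx1 C52S libraries, against 3.04, 2.28 and 2.41 FPKM in WT libraries. It was 1 of 6 tested members for which WT 8 was the lowest WT library, with a log2 fold change of -0.42 (SE 0.21, adjusted p = 0.251), or -0.58 (SE 0.17) without WT 8. Loxl3 measured 1.12, 0.66 and 0.86 FPKM in Prdx1 C52S libraries, against 1.86, 2.27 and 1.65 FPKM in WT libraries. Its log2 fold change was -0.82 (SE 0.21, adjusted p = 0.0934), and -0.80 without WT 8. Lox, the founding enzyme of the family, measured 0.4, 0.256 and 0.398 FPKM in Prdx1 C52S libraries, against 0.515, 0.748 and 0.521 FPKM in WT libraries (log2 fold change -0.45, SE 0.26, adjusted p = 0.319). Loxl4 measured 0.381, 0.405 and 0.368 FPKM in Prdx1 C52S libraries, against 0.407, 0.889 and 0.439 FPKM in WT libraries. These barely separated, and the log2 fold change of -0.25 (SE 0.30, adjusted p = 0.62) was 0.05 without WT 8.

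**Figure D4:**
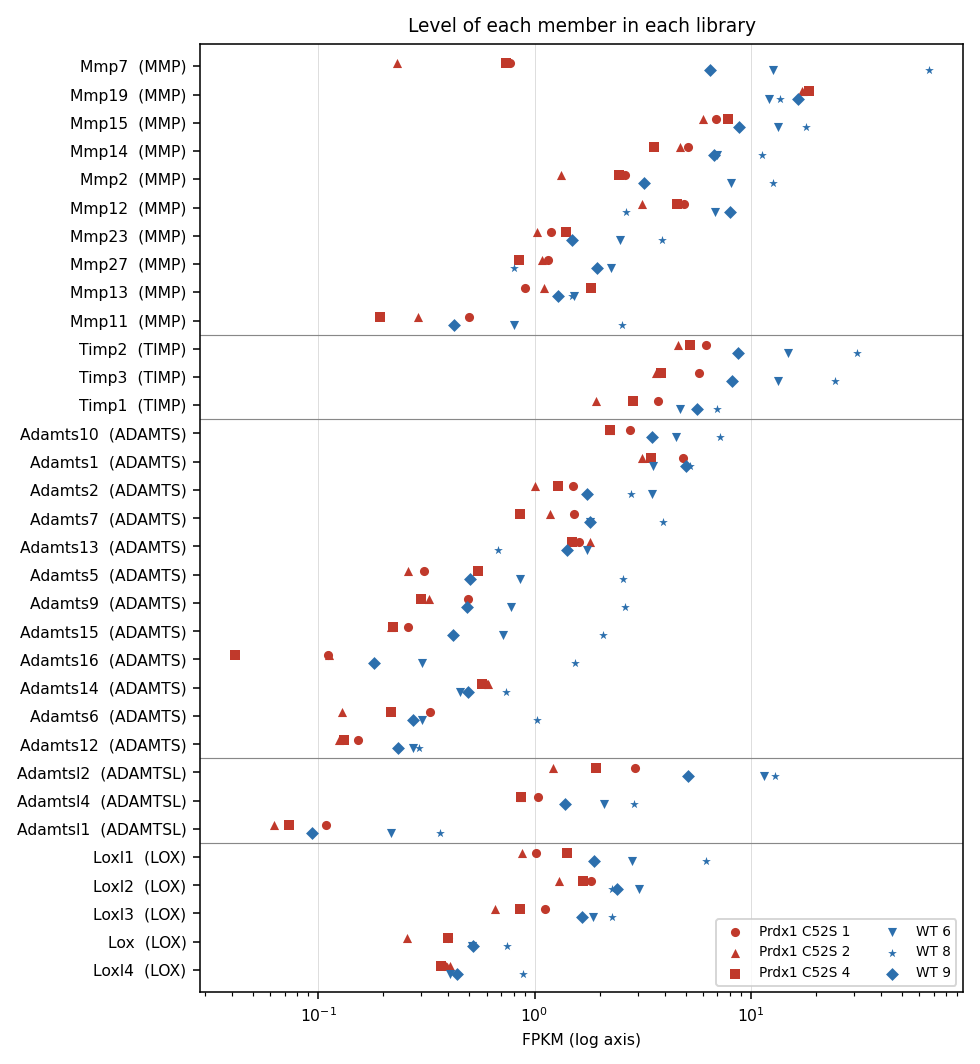
FPKM (log axis) in each library of the 33 members with a mean of at least 0.5 FPKM in a genotype or an unadjusted p below 0.05, by family and level; Prdx1 C52S libraries are drawn above WT libraries in each row. Mmp7 spans 0.231 to 0.772 FPKM in Prdx1 C52S libraries and 6.47 to 66.3 FPKM in WT libraries, and Mmp19 is the member whose Prdx1 C52S points all lie right of WT.

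WT 8 was the highest of the 6 libraries for 33 of the 45 tested members (73.3%), beside 59.4% of all genes tested, and it lay above both other WT libraries for 33 members, beside 65.6% of all genes. Family medians of the log2 fold change with all libraries were -0.49 for MMPs, -1.43 for TIMPs, -0.73 for ADAMTS proteases, -0.87 for ADAMTS-like proteins and -0.45 for lysyl oxidases. Without WT 8 they were -0.49 for MMPs, -1.02 for TIMPs, -0.49 for ADAMTS proteases, -0.72 for ADAMTS-like proteins and -0.58 for lysyl oxidases. The median was thus smaller in size without WT 8 for TIMPs, ADAMTS proteases and ADAMTS-like proteins, the same for MMPs and larger for lysyl oxidases. Medians hide the single genes. Of the lysyl oxidases only Loxl2 grew in size (-0.42 to -0.58), while the others shrank, Loxl1 from -1.37 to -0.90. Among the MMPs, Mmp7 went from -5.19 to -3.84 and Mmp12 from -0.25 to -0.63.

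**Figure D5:**
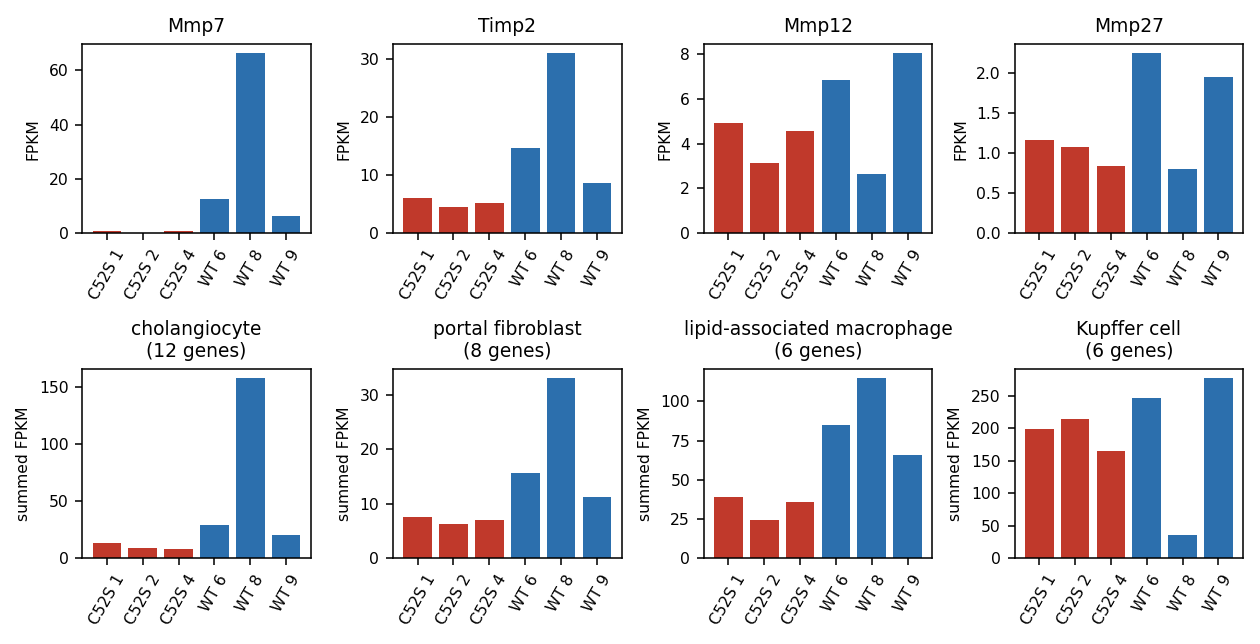
FPKM of 4 members (top) and summed FPKM of 4 marker lists (bottom) in each library, Prdx1 C52S (C52S) left of WT; bars start at 0. WT 8 has the highest Mmp7 and Timp2 and the highest cholangiocyte and portal fibroblast sums, and the lowest Mmp12, Mmp27 and Kupffer cell sum.

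Genes that act with the members were read from lists of 3 kinds. Over all 18931 genes tested, the background for their directions, 10028 had a negative log2 fold change and 8903 a positive one. Of 29 activators, inhibitors and partners of matrix proteinases, all tested, 17 were lower and 12 higher in Prdx1 C52S livers, 7 and 2 of them at an unadjusted p below 0.05 (beside 14.8% and 11.5% of all genes), with a median log2 fold change of -0.23. Tfpi2, a Kunitz-type inhibitor of serine proteases and some MMPs, measured 35.1, 36.8 and 34.9 FPKM in Prdx1 C52S libraries, against 24, 22.2 and 23.8 FPKM in WT libraries (log2 fold change 0.89, SE 0.13, edgeR adjusted p = 0.0559). Klkb1, plasma prekallikrein made by hepatocytes, measured 28.9, 35 and 31.7 FPKM in Prdx1 C52S libraries, against 24.6, 19.1 and 17.1 FPKM in WT libraries (log2 fold change 0.93, SE 0.19, adjusted p = 0.0803). Both lay above WT in every library. Lcn2, lipocalin 2 that binds MMP9, measured 21.5, 11.4 and 18.9 FPKM in Prdx1 C52S libraries, against 43, 60.8 and 92.6 FPKM in WT libraries (log2 fold change -1.65, SE 0.35, adjusted p = 0.0819). Cd44, a hyaluronan receptor that docks MMPs at the cell surface, measured 2.74, 2.67 and 2.69 FPKM in Prdx1 C52S libraries, against 4.43, 7.92 and 4.12 FPKM in WT libraries (log2 fold change -0.69, SE 0.17, adjusted p = 0.0875).

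Of 25 collagen-processing genes outside the members, 22 were tested, 18 lower and 4 higher, with 13 of the lower at an unadjusted p below 0.05 (beside 14.8% of all genes) and a median log2 fold change of -0.52. The 4 with the smallest p were Serpinh1, the collagen chaperone (log2 fold change -1.40, SE 0.24, adjusted p = 0.068), the lysyl hydroxylase Plod3 (-0.43, SE 0.09, adjusted p = 0.0819), Crtap of the prolyl 3-hydroxylation complex (-0.80, SE 0.19, adjusted p = 0.0874) and the collagen-binding glycoprotein Sparc (-0.86, SE 0.21, adjusted p = 0.0894). Serpinh1 measured 8.96, 8.17 and 11.2 FPKM in Prdx1 C52S libraries, against 25.8, 48.3 and 20.6 FPKM in WT libraries, without overlap. Plod3, Crtap and Sparc also had no overlap between the groups.

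Of 23 matrix substrates, 22 were tested, 20 lower and 2 higher, with 17 of the lower at an unadjusted p below 0.05 (beside 14.8% of all genes) and a median log2 fold change of -1.02, and -0.85 without WT 8. The basement membrane collagen Col4a1 measured 8.66, 7.48 and 8.26 FPKM in Prdx1 C52S libraries, against 17.8, 33 and 15.5 FPKM in WT libraries (log2 fold change -1.11, SE 0.20, adjusted p = 0.0719). Emilin1 (-0.66, SE 0.12, adjusted p = 0.0719), Col6a3 (-1.60, SE 0.33, adjusted p = 0.0806) and osteopontin, Spp1 (-2.03, SE 0.43, adjusted p = 0.0819), were likewise lower in every Prdx1 C52S library than in any WT library. Without WT 8, 2 lower and 2 higher genes of the 29 activators, inhibitors and partners passed the adjusted edgeR threshold, Cd44, Tfpi2 and Klkb1 among them. So did 1 lower of 22 collagen-processing genes (Serpinh1) and 3 lower of 22 substrates, Col4a1 and Emilin1 among them. The shares over all genes were 1.94% lower and 2.7% higher. The 12 named genes were picked by p in these same libraries, so their passing is not separate support.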

How the data were processed

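Liver RNA of 3 Prdx1 C52S and 3 WT mice was sequenced in read pairs after poly(A) selection, with dUTP strand marking and molecular identifiers, per the labels' protocols. The authors deposited an FPKM value (per the file headers) and an estimated count for each gene and library. Per the submitters' processing notes the tools included HISAT2 2.0.4, StringTie 1.3.4d, cutadapt 1.9 and UMI-tools, beside edgeR and DESeq2, with no roles stated. The notes name the build mm9, but 25866 of 29642 matched identifiers, 44 of 50 members among them, have the GRCm38 coordinates of GENCODE M21, and coordinates are given on GRCm38. Low estimated counts peak at 4 (6204 values, beside 3538 at 3 and 1965 at 5), so that low genes look more precise than they are. The sources used here do not state strand use or how reads shared by paralogs or overlapping genes were handled.

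Estimated counts, deposited as whole numbers, were tested with edgeR 4.0.16 (R 4.3.3): TMM scaling, a low-count filter (filterByExpr by genotype), two-sided F-tests of a robust quasi-likelihood fit, Benjamini-Hochberg adjustment over 18931 genes, threshold 0.05. TMM factors were 0.883 to 0.92 in Prdx1 C52S and 1.03 to 1.28 in WT libraries, so that equal FPKM gives a positive fold change. Of the members, 45 passed the filter and Mmp3, Mmp20, Mmp21, Adamts8 and Adamts20 did not, so that counts over tested members do not cover all 50. Exact permutation of 3 against 3 libraries cannot go below p = 0.1 and was not used. Alternatives were DESeq2 1.42.0 (size factors, test), library totals, no filter, voom and FPKM fits in limma 3.58.1 (pseudocounts 1 and 0.1), counts divided by 4 and leaving out each library. Overlap on TMM-scaled CPM was added after seeing the data. Members with a mean of at least 0.5 FPKM in a genotype or an unadjusted p below 0.05 are given in every library, and from each pathway list the 4 genes with the smallest p are named. Members and lists were chosen with earlier results of these data known.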

Additional observations from a re-analysis of the deposited data

How the results depend on the processing

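No paired analysis was possible because the groups share no replicate numbers. Over all genes, 0 were called with all libraries; the count was 160 with library totals, 196 without a filter on low counts, 3122 with DESeq2, 2029 with voom, 170 and 286 with limma on log2(FPKM + 1) and log2(FPKM + 0.1), 83 with counts divided by 4, and 0 to 897 when a library was left out, highest without WT 8. Members past the adjusted threshold numbered 0 with edgeR, 18 with DESeq2, 11 with voom and 0 to 3 when a library was left out, highest without WT 9. Members with an unadjusted p below 0.05 numbered 14 to 22 when a library was left out, lowest without Prdx1 C52S 2, against 23 with all. The median log2 fold change of members, -0.72, was -1.03 with library totals and -0.23 with limma on log2(FPKM + 1) without a filter, where 50 members entered. The cause of these differences was not tested. Of 33 named members, 4 turned direction. Adamts1 (0.03) was -0.27 with library totals, -0.22 and -0.26 in filtered limma with pseudocounts 1 and 0.1, -0.22 unfiltered, and -0.16 to 0.17 when a library was left out (-0.09 without WT 6). Mmp13 (0.12) was -0.18 with library totals, -0.02 with voom, -0.12, -0.21 and -0.12 in the limma fits, and -0.21 to 0.33 when a library was left out. Loxl4 (-0.25) was -0.41 to 0.05, reversed without WT 8, and Mmp12 (-0.25) was -0.63 to 0.10, reversed without WT 9. Groups of 3 libraries, about 4 counts per fragment and the low levels of 19 members limit what these data can show.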
